A study of Mus musculus with 26 samples.

Results

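Auts2 and 9 further autism-linked genes that encode chromatin regulators (Chd8, Chd2, Chd7, Arid1b, Ash1l, Kmt2a, Kmt2c, Ankrd11 and Setd5) were followed by symbol through single-nucleus RNA sequencing of the embryonic mouse cortex. They are 10 of the 30406 genes listed in all 8 libraries of cortical nuclei. The study asked whether microglia shape how other cortical cells respond to inflammation in the mother. Pregnant C57Bl/6N dams were injected into the peritoneum with poly(I:C), a double-stranded RNA mimic used to provoke maternal immune activation (MIA), or with saline, at E12.5, and the prospective somatosensory (S1) cortex of male embryos was collected at E15.5. The 4 groups are wild type after saline, wild type after MIA, Csf1r-null after saline and Csf1r-null after MIA, with 2 libraries each. Csf1r encodes the receptor that microglia need to develop, the null allele is constitutive, and wild-type littermates served as controls. Each condition rests on a few embryos, and all of them came from a few pregnant dams, so libraries of one treatment may share a dam, and p-values measure only the spread between these libraries.

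Chromatin regulators decide which genes in a nucleus can be read, by moving nucleosomes or by writing and reading marks on histone tails. Many of them are large proteins, and loss of a single copy of such a gene in the developing brain is a recognized cause of intellectual disability and autism. AUTS2 joins a variant Polycomb repressive complex and turns it towards gene activation. CHD8, CHD2 and CHD7 are nucleosome remodelers driven by ATP, and ARID1B is a DNA-binding subunit of the BAF remodeling complex. KMT2A and KMT2C (members of the MLL family) and ASH1L are histone H3 lysine methyltransferases. ANKRD11 is an ankyrin-repeat protein that binds histone deacetylase HDAC3, and SETD5 is a SET-domain protein found with the HDAC3 and NCOR corepressor complex.

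In mouse GRCm38 gene models (GENCODE M21), Auts2 is by far the longest of the 10, at chr5:131437333-132543344 on the minus strand, with a span of 1106 kb and 22.9 kb of merged exons. Arid1b spans 353 kb (chr17:4994332-5347656, plus strand), Kmt2c 227 kb (chr5:25271798-25498783, minus strand), Chd7 177 kb (chr4:8690406-8867659, plus strand) and Ankrd11 158 kb (chr8:122883822-123042277, minus strand). Ash1l spans 129 kb (chr3:88950622-89079375, plus strand), Chd2 115 kb (chr7:73426638-73541830, minus strand), Kmt2a 77.9 kb (chr9:44803355-44881296, minus strand), Setd5 76.1 kb (chr6:113077365-113153435, plus strand) and Chd8 59.6 kb (chr14:52198151-52257780, minus strand). The median span over the 30406 genes is 12.7 kb, so each member is several times longer than a typical gene. Exons make up only a small part of these genes, 12.6 to 22.9 kb each. Whether reads in introns were counted is not given in the sources used here, and spans therefore bear on what a UMI (a read group from 1 RNA molecule) can stand for.

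After removal of 1917 doublets, 41539 of 43456 nuclei with at least 500 UMIs and 200 genes were kept, carrying 9123536 to 16413362 UMIs per library. Clusters named from marker genes gave 8 classes with enough nuclei to test, 37051 nuclei in all, namely apical progenitors (APs, 3018 nuclei), dividing progenitors (2997), intermediate progenitors (IPs, 2934), migrating neurons (9302), callosal projection neurons (CPNs, 4323), subcerebral projection neurons (SCPNs, 5484), corticothalamic projection neurons (CThPNs, 6751) and interneurons (2242). The targeted gene went against the label in 2 of the 8 libraries. Csf1r had 23 and 11 UMIs in the wild-type saline libraries and 22 in the first wild-type MIA library, but 0 in the other library labelled wild-type MIA (replicate 2), which allows up to 3 UMIs, or 0.292 CPM, where CPM are UMIs per 1000000 UMIs. It had 4, 2 and 1 UMIs in 3 Csf1r-null libraries, but 10 in replicate 2 of the libraries labelled Csf1r-null saline. The 11 microglial markers followed the same division, with 46 UMIs in that library labelled wild-type MIA against 268 to 463 in the other wild-type libraries, and with 192 UMIs in that library labelled Csf1r-null saline against 60 to 92 in the other null libraries. Any direction below that uses these libraries follows their labels, and the count of members above 0 in each comparison is also given without both. Pairs of libraries shared 0 to 14 nuclear barcodes.

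Auts2 stood far above the other 9 genes in level. Levels are CPM of all nuclei or of a class in 1 library. Over the 8 libraries, Auts2 had 2843 ± 333 CPM in all nuclei (mean ± SD, n = 8), Kmt2a 370 ± 55.4, Ankrd11 325 ± 56.6, Chd2 242 ± 28.7, Kmt2c 194 ± 36.2, Setd5 193 ± 24.8, Ash1l 178 ± 37.8, Chd8 171 ± 22.4, Arid1b 104 ± 24.5 and Chd7 62.3 ± 14.3. Levels per kb are given as a description only, since a UMI counts a molecule and not its length. The order of the genes depended on the length used. Per kb of exon, the mean level of Auts2 was 124 CPM and that of the others 4.52 (Chd7) to 22.2 CPM (Kmt2a). Per kb of genomic span, the order turned, with Kmt2a at 4.75 CPM, Chd8 at 2.87 CPM, Auts2 at 2.57 CPM and Arid1b lowest at 0.296 CPM.

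Classes were made by clustering on expression, so levels across classes are a description and were not tested. Levels of Chd2 in APs and of Chd7 in IPs were lower when nuclei were clustered anew with doublets kept, as given in the closing section. Auts2 was lowest in APs and highest in migrating and projection neurons. Its mean was 1839 ± 322 CPM in APs (n = 8 libraries), 2152 ± 177 in interneurons, 2290 ± 380 in dividing progenitors, 2744 ± 286 in IPs, 2904 ± 361 in SCPNs, 2975 ± 372 in CPNs, 3100 ± 399 in migrating neurons and 3197 ± 237 in CThPNs. CThPNs exceeded APs in 8 of 8 libraries, by 1.74-fold on the means. Of the 7 neighboring steps in this order, 2 were larger than the SD of their difference over libraries, from APs to interneurons (7 of 8 libraries) and from dividing progenitors to IPs (8 of 8 libraries), and the 4 neuronal classes of the projection lineage did not differ from their neighbors beyond that spread.

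Chd7, a remodeler needed for neural crest and progenitor programs, had the steepest pattern of the 10. It had 369 ± 91.2 CPM in IPs, 232 ± 61.0 in APs and 203 ± 44.4 in dividing progenitors, then 48.6 ± 15.7 in interneurons, 32.9 ± 12.1 in migrating neurons, 13 ± 3.33 in CPNs, 8.11 ± 2.71 in SCPNs and 5.09 ± 1.15 in CThPNs. IPs were the highest class in 8 of 8 libraries and exceeded CThPNs 72.4-fold on the means. Only APs and dividing progenitors were neighbors within the spread of their difference. In the thinnest cases, SCPNs and CThPNs, a library held as few as 6 and 7 Chd7 UMIs. The members took no part in the clustering, and Chd7 is among the 10 genes with the highest fold in the IP cluster formed without it.

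Chd2 and Setd5 also ran from progenitors down to deep-layer neurons. Chd2 went in order from 480 ± 67.2 CPM in APs through 393 in IPs, 382 in dividing progenitors, 288 in migrating neurons, 205 in CPNs, 193 in interneurons and 162 in CThPNs to 158 ± 27.4 CPM in SCPNs, a 3.04-fold range. Setd5 ran from 307 ± 49.3 CPM in dividing progenitors to 142 ± 20.0 in SCPNs, a 2.17-fold range. Ankrd11 ranged 1.83-fold, from 467 ± 118 CPM in APs to 255 ± 42.2 in CThPNs, and Ash1l 1.74-fold, from 249 ± 62.0 in APs to 143 ± 34.0 in SCPNs. Kmt2c was highest in IPs (273 ± 49.7 CPM, the highest class in 7 of 8 libraries) and lowest in SCPNs (169 ± 29.7). Arid1b had the opposite slope to Chd2, with 131 ± 45.2 CPM in interneurons, 118 ± 24.3 in migrating neurons and 63.8 ± 15.0 in dividing progenitors. Chd8 and Kmt2a were nearly flat, at 162 to 204 CPM and 343 to 403 CPM over the 8 classes. Over all members, 23 of 70 neighboring steps exceeded the SD of their difference, and 13 had the same order in 8 of 8 libraries.

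**Figure D1:**
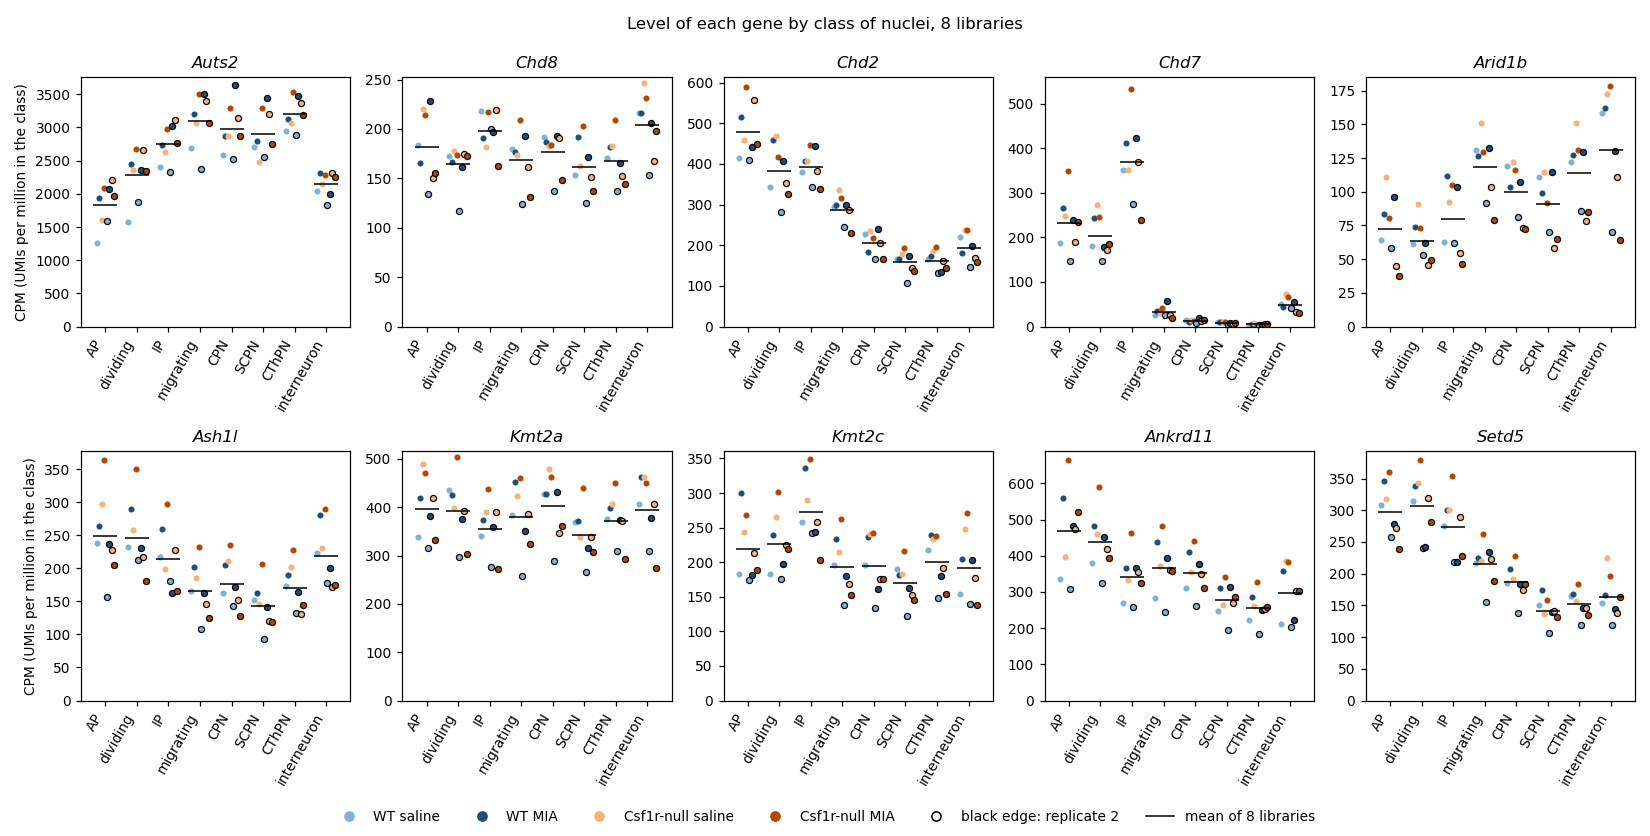
Level of each of the 10 genes (CPM, 1 panel and 1 linear axis from 0 per gene) in the 8 classes, with 1 point per library, colored by group, and the mean of the 8 libraries. Auts2 lies between 1260 and 3642 CPM in every class and library, while Chd7 drops from 369 CPM on average in IPs to 5.09 CPM in CThPNs.

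Another 3 classes had too few nuclei to follow by library and were pooled over the 8 libraries, with exact Poisson 95% intervals that cover counting error only. In 31 microglia, Auts2 had 6 UMIs, or 110 CPM (40.4 to 240), and in 58 pericytes 854 CPM (709 to 1021), both under its mean in any of the 8 classes. Free RNA in the droplets was not measured, so UMIs in these few nuclei need not be their own, and the 6 Auts2 UMIs are not read as expression in microglia. In 137 Cajal-Retzius cells Auts2 had 1932 CPM (1815 to 2055). Chd7 in Cajal-Retzius cells was at 240 CPM (200 to 286), above its mean in each of the other neuronal classes. Chd8 in microglia was at 349 CPM (210 to 545), above its mean in each of the 8 classes. These pools mix treatments and genotypes and allow no test.

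In wild-type cortex most values of the 10 genes were higher in the libraries labelled MIA than in those labelled saline, but no single gene passed the test. Summed over the 10 genes, all nuclei had 4210 and 3818 CPM in the wild-type saline libraries and 4901 and 5078 CPM in those labelled wild-type MIA. The MIA libraries were thus above both saline libraries in summed level, but Auts2 makes up the larger part of each sum. The other 9 genes summed to 1878 and 1374 CPM after saline and to 2041 and 1892 CPM in the libraries labelled MIA. In all nuclei 3 of the 10 genes (Auts2, Chd7 and Ankrd11) had groups that did not overlap, all higher after MIA, against 20.5% of all 14379 genes. For Chd7 the groups nearly touched, at 68.66 CPM in the higher saline library and 68.72 CPM in the lower MIA library. Overlap, here and below, was judged on CPM, for the members and for all genes alike. CPM lack the scaling factors between libraries that the fit uses, so narrow gaps need not hold on the scale of the fit. All nuclei include unnamed clusters, which the class values leave out, and 1 of these, led by Ebf1, Adarb2 and Isl1, has 699 of its 834 nuclei in wild-type saline replicate 1. In the nuclei of the 8 classes alone the sums over the 10 genes were 4291 and 3838 CPM after saline and 4937 and 5125 CPM in the libraries labelled MIA. For each class, UMIs were summed per library and tested with edgeR's quasi-likelihood test, and all 10 members passed the filter on low counts in all 8 classes, giving 80 values. Of these 80 fitted log2 changes, 77 were above 0 and 3 below, with a median of 0.23, against a median of 0.0077 over all genes tested, of which 50.9% were above 0. The 80 values come from the same libraries and are not independent, so a shift of 1 library can move many of them. At a Benjamini-Hochberg adjusted p under 0.05, 0 of the 80 values were called, and the background was 0% (0 of 79105 tests over the 8 classes, and 0 of 14379 genes in all nuclei). The smallest adjusted p of a member was 0.427. At an unadjusted p under 0.05, 7 of 80 values passed, all higher after MIA. Of all 79105 tests 6.28% passed, 1640 of them higher and 3328 lower. DESeq2 called 77 tests over all genes and no member. The 2 libraries of each group did not overlap in 34 values that were higher after MIA, against 21.2% of all tests, and in 1 that was lower (Chd8 in IPs), against 15.9%.

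Auts2 was higher in both libraries labelled wild-type MIA than in both saline libraries in 7 of 8 classes. In APs it had 1260 and 1585 CPM after saline and 1940 and 2066 CPM after MIA, a fitted log2 change of 0.42 (SE 0.20, edgeR adjusted p = 0.568), which ranged from 0.27 to 0.61 over the settings tried. Dividing progenitors had 1574 and 1882 CPM after saline and 2453 and 2357 CPM after MIA, again a log2 change of 0.42 (SE 0.19, unadjusted p = 0.049, edgeR adjusted p = 0.538), which was 0.21 without wild-type saline replicate 1 and 0.60 without wild-type saline replicate 2. These progenitor values were the largest for Auts2, and in each case the groups did not overlap. The makeup of the dividing progenitors was uneven, however. A cluster in this class, led by Top2a, Knl1 and Esco2, gave 279 of 482 nuclei in wild-type saline replicate 1 and 79 of 291 in replicate 2. In the libraries labelled wild-type MIA it gave 141 of 459 and 111 of 387. The part of this makeup in the Auts2 values was not tested. In migrating neurons the levels were 2686 and 2376 CPM after saline and 3204 and 3502 CPM after MIA (log2 change 0.35, SE 0.17, edgeR adjusted p = 0.651). CThPNs, where Auts2 is highest, had 2952 and 2881 CPM after saline and 3131 and 3469 CPM after MIA, a log2 change of 0.15 (SE 0.15). Interneurons were the class in which the groups overlapped, with 2048 and 1835 CPM after saline and 2316 and 1998 CPM after MIA. Over all nuclei the change was 0.26 (SE 0.19, from -0.11 to 0.64 within 2 SE, edgeR adjusted p = 0.927), and it was 0.13 without wild-type saline replicate 1. Without the library labelled wild-type MIA replicate 2 the change was 0.02 in SCPNs, 0.04 in CThPNs and 0.10 in CPNs.

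Ankrd11 had the most even shift, with both MIA libraries above both saline libraries in 8 of 8 classes. AP levels were 336 and 309 CPM in the wild-type saline libraries and 559 and 481 CPM in those labelled wild-type MIA, a log2 change of 0.62 (SE 0.20, unadjusted p = 0.007, edgeR adjusted p = 0.427). Migrating neurons had 285 and 244 CPM after saline and 438 and 393 CPM after MIA, a log2 change of 0.59 (SE 0.18, unadjusted p = 0.009, edgeR adjusted p = 0.588). These are 1.53-fold and 1.51-fold higher levels, and in both classes the within-group gaps were smaller than the gap between groups. SCPNs (246 and 194 CPM against 311 and 314 CPM, log2 change 0.46) and CThPNs (223 and 183 CPM against 286 and 250 CPM, log2 change 0.38) had the other values for this gene with an unadjusted p under 0.05. In all nuclei the levels were 274 and 230 CPM after saline and 369 and 348 CPM after MIA, a log2 change of 0.44 (SE 0.15, from 0.14 to 0.74 within 2 SE, edgeR adjusted p = 0.888), and 0.42 to 0.47 without 1 library. The interneuron value of 0.45 was 0.08 without wild-type MIA replicate 1.

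The remaining members gave smaller or less even values. Chd7 in APs had 187 and 148 CPM after saline and 266 and 239 CPM after MIA, a log2 change of 0.52 (SE 0.23, unadjusted p = 0.039, edgeR adjusted p = 0.531). Arid1b in IPs had 62.8 and 61.6 CPM after saline and 112 and 104 CPM after MIA, a log2 change of 0.76 (edgeR unadjusted p = 0.033). Both sets of libraries were apart, but in all nuclei Arid1b had 119 and 78.3 CPM after saline and 115 and 119 CPM after MIA, so its groups overlapped there. Over the 8 classes the median log2 change was 0.34 for Chd7, 0.25 for Arid1b, 0.24 for Ash1l and Kmt2c, 0.20 for Kmt2a, 0.16 for Chd8, 0.13 for Setd5 and 0.12 for Chd2. The 3 values below 0 were those of Chd8 in IPs (-0.14), Chd2 in interneurons (-0.02) and Chd7 in interneurons (-0.01). In all nuclei the 10 values ran from 0.13 (Chd2) to 0.44 (Ankrd11, with Chd7 at the same rounded value). Only Ankrd11 had an unadjusted p under 0.05, where 5.5% of all genes did (200 higher and 591 lower). Without wild-type saline replicate 2 the all-nuclei values of Chd8, Chd2, Arid1b, Ash1l, Kmt2a and Setd5 came to 0.00039 to 0.024, and without wild-type MIA replicate 1 that of Kmt2c came to 0.045.

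**Figure D2:**
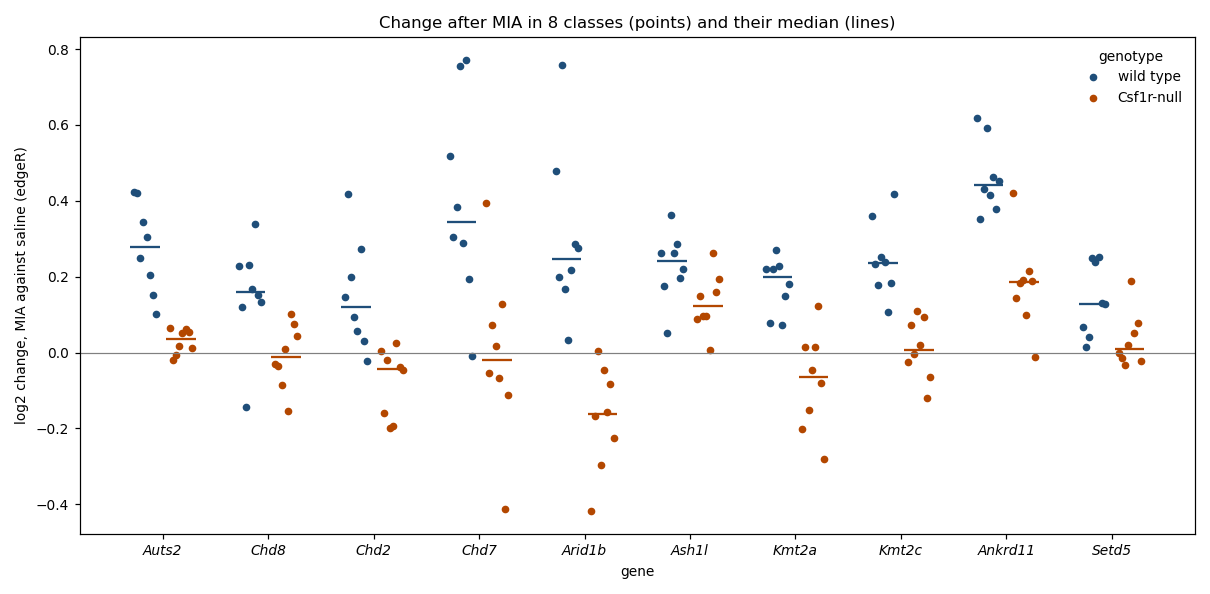
Fitted log2 change after MIA of each of the 10 genes in wild type and in Csf1r-null, with 1 point per class and a line at the median of the 8 classes. The wild-type values have a median of 0.23 with 77 of 80 above 0, and the Csf1r-null values a median of 0.0075 with 43 of 80 above 0.

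The wild-type count depended on which libraries were kept. Without both libraries whose microglial genes go against the label, 73 of 80 values were above 0, with a median of 0.27. Leaving out wild-type saline replicate 2, which has the lowest summed level of the 10 genes, left 61 of 80 above 0 with a median of 0.11. Leaving out wild-type saline replicate 1 gave 79 of 80 and a median of 0.37, and leaving out wild-type MIA replicate 1 gave 68 of 80 and a median of 0.19. In 64 of the 80 cases the change within replicate 1, the change within replicate 2 and the fitted change had the same sign. With the replicate number as a block, 0 of 80 values were called, the smallest adjusted p was 0.087 (edgeR, Ankrd11 in APs, with 0.087 to 0.922 over its 18 settings), and 0.613% of all tests were called (485 of 79105).

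In Csf1r-null cortex the same genes showed no common direction after MIA. Summed over the 10 genes, all nuclei had 4699 and 4844 CPM in the libraries labelled Csf1r-null saline and 5482 and 4426 CPM in the Csf1r-null MIA libraries, so the MIA libraries lay on both sides of the saline ones. Of 80 fitted log2 changes, 43 were above 0 and 37 below, with a median of 0.0075, against 0.0047 over all genes tested. None was called (edgeR, smallest adjusted p = 0.9997), against 0% of all tests over the 8 classes and in all nuclei, and 0 of 80 had an unadjusted p under 0.05, against 1.31%. DESeq2 called no member. Groups did not overlap in 2 values that were higher after MIA (Ankrd11 in APs and in SCPNs), against 11.9% of all tests, and in 1 that was lower (Chd8 in dividing progenitors), against 10.9%.

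Ankrd11 in Csf1r-null APs had 397 and 473 CPM in the libraries labelled saline and 665 and 520 CPM after MIA, a log2 change of 0.42 (SE 0.20, from 0.02 to 0.82 within 2 SE, unadjusted p = 0.052 by edgeR). Auts2 in the same class had 1605 and 2201 CPM after saline and 2082 and 1973 CPM after MIA, a log2 change of 0.07 (SE 0.20), with overlapping groups. In all nuclei Auts2 had 2725 and 3104 CPM after saline and 3239 and 2852 CPM after MIA, a log2 change of 0.06 (SE 0.19, from -0.32 to 0.43 within 2 SE). The 2 replicates gave opposite signs. Within replicate 1 the log2 change of Auts2 in all nuclei was 0.25 and that of Ankrd11 0.37, and within replicate 2 they were -0.12 and -0.02. In all nuclei every member but Arid1b (138 CPM after saline and 116 CPM after MIA) was above 0 within replicate 1. All 10 members were below 0 within replicate 2, and 18 of the 80 class values had the same sign within both replicates and in the fit. Leaving out Csf1r-null MIA replicate 1 left 14 of 80 values above 0 (median -0.18), leaving out Csf1r-null MIA replicate 2 left 66 (median 0.16), and leaving out both libraries whose microglial genes go against the label left 33 (median -0.04).

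**Figure D3:**
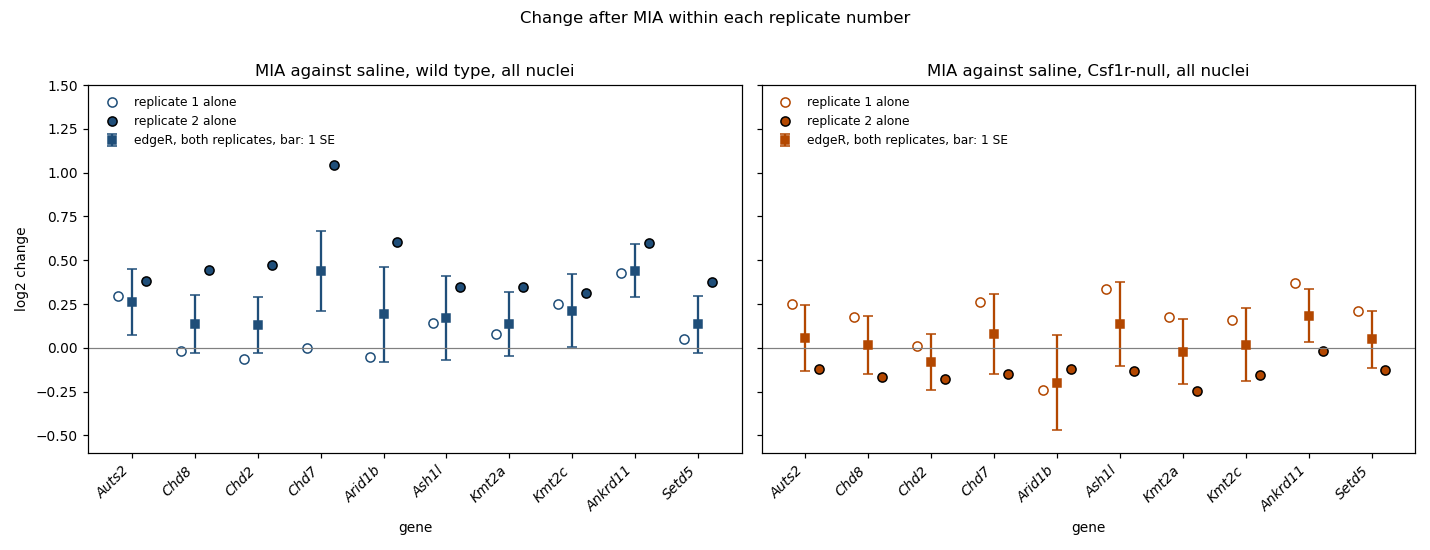
Log2 change after MIA in all nuclei of each of the 10 genes within replicate 1 and within replicate 2, in wild type and in Csf1r-null, from log2(CPM + 1), beside the edgeR estimate with its SE as a bar. Auts2 is at 0.29 and 0.38 in wild type and at 0.25 and -0.12 in Csf1r-null, and all 10 Csf1r-null values within replicate 2 lie below 0.

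The difference between genotypes in the MIA response was tested directly, as an interaction. It was above 0 in 77 of 80 values, with a median of 0.23, against -0.0030 over all genes tested, and 0 of 80 were called (edgeR, smallest adjusted p = 0.992), against 0% of all tests over the 8 classes and in all nuclei. At an unadjusted p under 0.05, 0 of 80 values passed, against 2.95% of all tests. The count and median moved with single libraries, to 52 of 80 (median 0.09) without Csf1r-null MIA replicate 2, 57 (median 0.12) without wild-type saline replicate 2 and 80 (median 0.41) without Csf1r-null MIA replicate 1. Without both libraries whose microglial genes go against the label they were 74 and 0.29. For Auts2 in APs the difference was 0.36 (SE 0.29, from -0.22 to 0.93 within 2 SE) and for Ankrd11 in APs 0.20 (SE 0.28, from -0.36 to 0.76 within 2 SE). The largest was that of Arid1b in APs, 0.90 (SE 0.52, from -0.13 to 1.93 within 2 SE), where the saline libraries alone had 64.0 and 58.3 CPM in wild type and 111 and 45 CPM in Csf1r-null. With the replicate number as a block, 0 of 80 values were called, against 2 of 79105 tests. The smallest adjusted p was then 0.571 (edgeR, Chd2 in dividing progenitors). A wild-type response larger than the Csf1r-null response was therefore not detectable for any single member with 2 libraries a group, in either fit. The intervals come from the main fit, which has no such block. Intervals this wide also hold differences as large as the wild-type changes themselves.

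Averaged over both genotypes, 69 of the 80 changes after MIA were above 0 and 11 below, with a median of 0.12, against 0.0042 over all genes. None was called by edgeR, against 0% of all tests over the 8 classes and in all nuclei. An unadjusted p under 0.05 was reached by 5, all higher, against 3.79% of all tests (1154 higher and 1845 lower). Of those 5, 4 were Ankrd11, in APs (0.52, SE 0.14, unadjusted p = 0.0022, edgeR adjusted p = 0.648), migrating neurons (0.39), SCPNs (0.34) and CThPNs (0.28), and the other was Chd7 in APs (0.46, SE 0.16). Ankrd11 in APs was the single member value that another tool called, with a log2 change of 0.51 and an adjusted p of 0.0449 in DESeq2, which called 0.0241% of its tests (17 of 70590). Over 18 settings its adjusted p ranged from 0.0449 to 0.972 and its log2 change from 0.42 to 0.64. Over the members, 47 of 80 values were above 0 without Csf1r-null MIA replicate 1 (median 0.02), 56 without wild-type saline replicate 2 (median 0.06), 72 without Csf1r-null saline replicate 1 (median 0.18), 77 without Csf1r-null MIA replicate 2 (median 0.20) and 63 without both libraries whose microglial genes go against the label (median 0.11).

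The 2 genotypes were also compared after saline alone, and again most values lay on the same side without any passing the test. After saline, the libraries labelled Csf1r-null were above wild type in 76 of 80 values, with a median log2 difference of 0.22, against 0.0044 over all genes. None was called (edgeR, smallest adjusted p = 0.481), against 0% of all tests over the 8 classes and in all nuclei. An unadjusted p under 0.05 was reached by 4, all higher in Csf1r-null, against 5.94% of all tests (1693 higher and 3002 lower). Groups did not overlap in 34 values, all higher, against 17.8%. Leaving out wild-type saline replicate 2 left 59 of 80 values above 0 (median 0.12), leaving out Csf1r-null saline replicate 1 left 62 (median 0.15), leaving out wild-type saline replicate 1 gave 78 (median 0.34), and leaving out both libraries whose microglial genes go against the label gave 77 (median 0.27). The 4 with a p under 0.05 were Ankrd11 in interneurons and in migrating neurons, Auts2 in dividing progenitors and Kmt2a in APs. Auts2 in dividing progenitors had 1574 and 1882 CPM in wild type and 2365 and 2666 CPM in Csf1r-null, a log2 difference of 0.51 (SE 0.19, edgeR adjusted p = 0.481). The uneven makeup of this class in wild-type saline replicate 1, given above, enters this value too. Ankrd11 in interneurons had 211 and 203 CPM in wild type and 385 and 303 CPM in the libraries labelled Csf1r-null, a log2 difference of 0.72 (SE 0.24, edgeR adjusted p = 0.508). With the replicate number as a block that value was called (0.73, edgeR adjusted p = 0.0419, with 0.0419 to 0.955 over its settings), where 0.354% of all tests were called. The wild-type saline libraries enter both this comparison and the MIA comparison in wild type, so their level is in both results.

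After MIA the summed level of the 10 genes was above both libraries labelled wild type in 1 Csf1r-null library and below both in the other. Of 80 values, 39 were higher in Csf1r-null and 41 lower, with a median of -0.0018, against 0.0066 over all genes. None was called (edgeR, smallest adjusted p = 0.9987), against 0% of all tests over the 8 classes and in all nuclei, and 0 had an unadjusted p under 0.05, against 1.11%. Groups did not overlap in 1 value that was higher in Csf1r-null, against 9.72% of all tests, and in 3 that were lower, against 13%. Without Csf1r-null MIA replicate 1, 16 of 80 were higher in Csf1r-null (median -0.20), without Csf1r-null MIA replicate 2, 67 (median 0.16), without wild-type MIA replicate 1, 45 (median 0.06), and without both libraries whose microglial genes go against the label, 38 (median -0.02). In all nuclei Auts2 had 2860 and 3186 CPM in the libraries labelled wild-type MIA and 3239 and 2852 CPM in the Csf1r-null MIA libraries. Both pairs span about the same range.

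Gene length moved with these differences. Over all nuclei, the share of UMIs in genes over 100 kb was 15.8 and 14.1% in the wild-type saline libraries, 17.7 and 15.8% in those labelled wild-type MIA, 17.3 and 16.1% in those labelled Csf1r-null saline and 18.6 and 15.1% in the Csf1r-null MIA libraries. Replicate 1 was above replicate 2 in each group. The share of ribosomal protein transcripts, which come from short genes, was 3.70 and 5.21% in the wild-type saline libraries, 4.06 and 3.73% in those labelled wild-type MIA, 4.51 and 4.06% in those labelled Csf1r-null saline and 3.58 and 4.91% in the Csf1r-null MIA libraries. With 14379 tested genes divided by span, the median log2 change after MIA in wild type was -0.07 for genes under 10 kb, -0.02 from 10 to 30 kb, 0.05 from 30 to 100 kb, 0.11 from 100 to 300 kb and 0.12 for the 507 genes over 300 kb. Without wild-type MIA replicate 1 the wild-type median over 300 kb was 0.02 and that under 10 kb -0.04. The median under 10 kb was -0.0041 without wild-type saline replicate 2, -0.12 without wild-type saline replicate 1 and -0.16 without the library labelled wild-type MIA replicate 2, where the median over 300 kb was 0.14, 0.14 and 0.18. In Csf1r-null the same medians were -0.01, 0.01, 0.03, 0.02 and -0.01, but the shortest and longest bins were at 0.08 and -0.12 without Csf1r-null MIA replicate 1 and at -0.12 and 0.08 without Csf1r-null MIA replicate 2. For Csf1r-null against wild type after saline they were -0.10, -0.04, 0.05, 0.11 and 0.15.

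With all libraries, genes over 300 kb exceeded genes under 10 kb in median log2 change in 8 of 8 classes in wild type, by 0.14 to 0.48, and in Csf1r-null in 4 of 8, by -0.08 to 0.07. In the saline comparison of genotypes the gap was above 0 in 8 of 8 classes, at 0.20 to 0.50. Between replicate 2 and replicate 1, which also differ in software version, the same gap was below 0 in 8 of 8 classes, at -0.27 to -0.14. The members' own log2 differences between these replicates in all nuclei were 0.19 for Auts2 and -0.38 (Arid1b) to -0.04 (Ankrd11) for the others. Within replicates, the median of genes over 300 kb in wild type was 0.17 and 0.18, and in Csf1r-null 0.11 and -0.14.

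Set beside genes of their own length, the place of most members in wild type depended on which libraries were kept. With all libraries, each of the 10 had a larger log2 change in all nuclei than the median of its length bin. Without wild-type saline replicate 2 this held for 4 of the 10 (Auts2, Chd7, Kmt2c and Ankrd11), without the library labelled wild-type MIA replicate 2 for 7, and without wild-type saline replicate 1 or wild-type MIA replicate 1 for 9. Chd7, Kmt2c and Ankrd11 were above their bin's median whichever library was left out. The all-nuclei value of Chd7 also holds the makeup of the libraries, as Chd7 is highest in IPs. IPs were 214 of 4515 and 271 of 4479 nuclei in wild-type saline. They were 377 of 5787 and 527 of 5085 in the libraries labelled wild-type MIA. Dividing progenitors, where Chd7 is also high, numbered 482 and 291 after saline and 459 and 387 after MIA. The part of this makeup in the Chd7 value was not tested. With all libraries the excess was 0.33 for Ankrd11 and Chd7, 0.14 for Auts2, 0.11 for Kmt2c, 0.09 for Chd8, Kmt2a and Setd5, 0.07 for Arid1b, 0.06 for Ash1l and 0.02 for Chd2. Ankrd11 lay above 92.3% of the genes in its bin, Chd7 above 92.2%, Auts2 above 73.2% and Chd2 above 54.4%. In Csf1r-null, 5 of the 10 were above the median of their bin, Kmt2c was the median gene of its bin and 4 were below, with Ankrd11 above 87.7% of its bin and Arid1b above 12.6%. Leaving out 1 library put 2 to 7 of the 10 above their bin in Csf1r-null. The part of gene length and of the makeup of the libraries in the members' values was not tested.

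**Figure D4:**
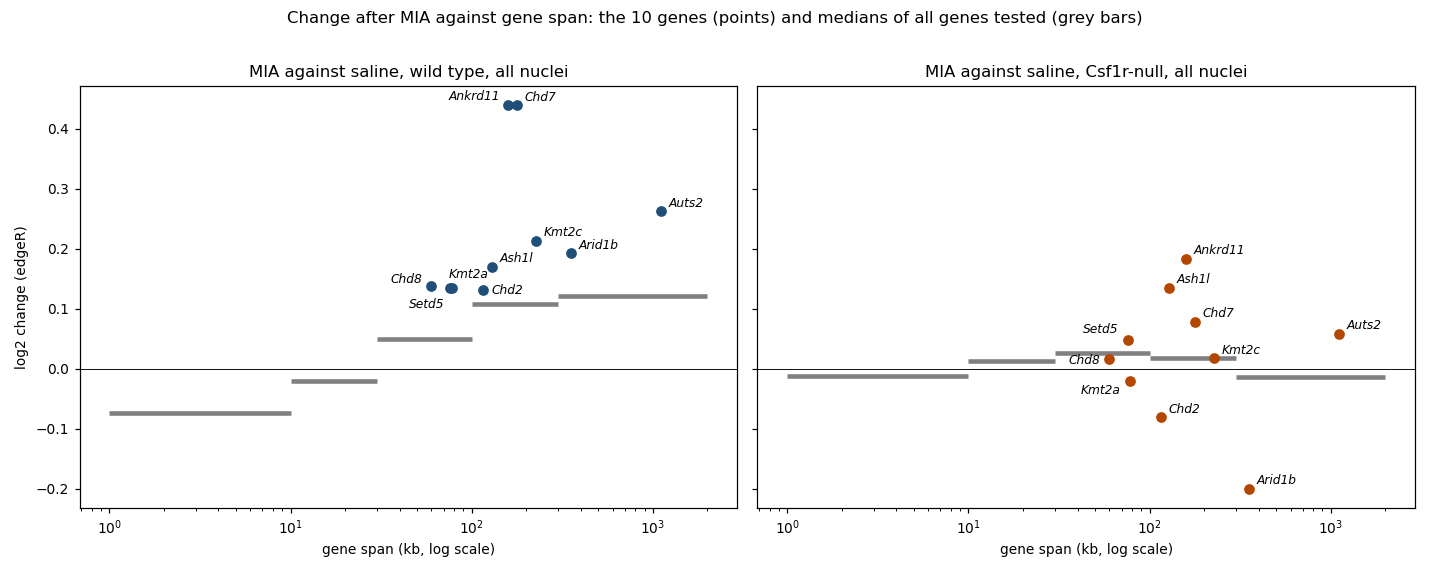
Median log2 change in all nuclei against genomic span (kb, log scale) for 5 length bins, with the 10 genes as points, for MIA against saline in wild type and in Csf1r-null. The wild-type medians run from -0.07 to 0.12 from the shortest to the longest bin, and all 10 genes lie above the median of their bin, while the Csf1r-null medians lie between -0.01 and 0.03. The plot uses all libraries, and without wild-type MIA replicate 1 the longest wild-type bin is at 0.02.

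Of the promoters that could be matched, 5 of 6 held more CG than the median mouse promoter. RefSeq promoter windows (GRCm38.p6, 250 bases before to 50 after the start) were matched for 6 of the 10 genes and searched for CG, which reads the same on both strands. Kmt2c had 56 CG in 300 bases, and 0.195% of 32851 mouse promoters had as many or more. Arid1b had 42 (3.03% of promoters had as many or more), Ankrd11 and Kmt2a 36 each (6.23%), and Chd8 26 (16.9%), against a median of 7. Setd5 had 1 in its window (chr6:113104685-113104984), and 94.6% of promoters had as many or more. The windows of Setd5 and Arid1b (chr17:4994824-4995123) lie wholly inside the genes as annotated by GENCODE. The 250 bases before the start of Ankrd11, the member with the most even values after MIA, are shown as an example, at chr8:123042285-123042534, minus strand, with its 30 CG in capitals.
Ankrd11: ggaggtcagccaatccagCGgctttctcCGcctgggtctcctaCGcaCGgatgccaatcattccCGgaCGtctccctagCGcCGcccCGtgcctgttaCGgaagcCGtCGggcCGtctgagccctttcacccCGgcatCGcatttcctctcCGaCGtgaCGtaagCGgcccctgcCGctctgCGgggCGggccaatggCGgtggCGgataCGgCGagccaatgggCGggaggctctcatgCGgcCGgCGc

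Partners and relatives of the 10 proteins gave no call. Of 106 genes in 7 lists, all tested in all nuclei, 73 were above 0 and 33 below after MIA in wild type. By edgeR 0 were called. An unadjusted p under 0.05 was found for 2, both lower, where 5.5% of all genes had one (200 higher and 591 lower). In Csf1r-null 77 were above 0 and 29 below, with none at an unadjusted p under 0.05, against 0.285% of all genes. Over the 8 classes, 0 of 823 list tests were called in wild type. An unadjusted p under 0.05 was reached by 6.28% of all tests (1640 higher and 3328 lower). Among the list tests, 27 were higher and 12 lower at that level. Of these, 12 of the higher and 0 of the lower values were among the 239 tests of other autism-linked nuclear regulators. Another 7 of the higher and 8 of the lower values were among the 95 tests of AUTS2 partners. These tests share libraries, and the lists were not set beside genes of their own length, so the part of gene length was not tested. Of the list tests in Csf1r-null, 3 were higher and 3 lower at that level, against 1.31% of all tests. The 30 other autism-linked nuclear regulators had a median log2 change of 0.14 in wild type and 0.05 in Csf1r-null, and 17 genes of the KMT2 and SET1 complexes 0.14 and 0.09. Medians were 0.06 and 0.01 for 12 AUTS2 partners, 0.07 and 0.07 for 6 other CHD remodelers, 0.03 and 0.05 for 25 BAF subunits, 0.04 and 0.06 for 6 genes of the HDAC3 and NCOR complex, and -0.09 and 0.02 for 10 genes of PRC2, against 0.0151 and 0.0111 over all 14379 genes.

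The lowest p among the lists belonged to Csnk2b, the regulatory subunit of casein kinase 2 and an AUTS2 partner. It had 142 and 155 CPM in the wild-type saline libraries and 86.3 and 81.3 CPM in those labelled wild-type MIA, a log2 change of -0.91 (SE 0.20, unadjusted p = 0.002, edgeR adjusted p = 0.888). Csf1r-null libraries had 96.0 and 82.8 CPM after saline and 75.8 and 97.6 CPM after MIA (log2 change -0.03). Wild-type saline thus stood above all 6 other libraries. Rbbp7, a histone-binding subunit of PRC2, had 85.4 and 73.2 CPM after saline and 60.4 and 64.6 CPM after MIA in wild type (log2 change -0.41, SE 0.15, edgeR adjusted p = 0.888). Both of these genes are short, at 5.86 and 18.7 kb. Fbrs, a paralog of AUTS2, had 24.5 and 17.8 CPM after saline and 30.6 and 30.9 CPM after MIA (log2 change 0.48, SE 0.21).

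For the other lists, genes with the smallest p in wild type were these. Of the BAF subunits, Smarcb1, a core subunit, had a log2 change of -0.36 (SE 0.18) and Actl6b, the neuronal actin-like subunit, -0.25 (SE 0.14). In the KMT2 and SET1 complexes Dpy30, a core subunit, had -0.66 (SE 0.37) and Paxip1 0.30 (SE 0.20). Of the corepressors Ncor1 had 0.10 (SE 0.14). The remodelers Chd5 and Chd1 had -0.29 (SE 0.30) and 0.12 (SE 0.13), the PRC2 methyltransferase Ezh1 0.19 (SE 0.16), the H3 demethylase Kdm5c 0.30 (SE 0.15) and the methyl-binding-domain gene Mbd5 0.26 (SE 0.14). Among these 10 genes, edgeR adjusted p-values ran from 0.892 to 0.951.

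The genes whose levels were most like those of each member were ranked by Pearson r of log2(CPM + 1) over 64 points, the 8 classes in 8 libraries, among 7822 genes with a mean of at least 20 CPM. Points share libraries and classes, so r is a description. Auts2 was most like Neurod2 (r = 0.83), a neuronal transcription factor, then Chst15 (0.83), Zfp68 (0.80), Tenm4 (0.80) and Nfasc (0.80), an axonal adhesion molecule. Chd7 was most like Prag1 (0.96) and Zc3h12c (0.95), Chd2 like Cdc14a (0.95) and Mir9-3hg (0.95), and Setd5 like the RNA-binding genes Safb2 (0.92) and Tardbp (0.92). The other members were most like Tnrc6b (0.85) and Crebbp (0.84) for Arid1b, Wnk1 (0.88) and Pds5a (0.87) for Ash1l, Fchsd2 (0.84) and Ankrd17 (0.81) for Kmt2a, Kdm3b (0.84) and Fam193b (0.83) for Kmt2c, C130071C03Rik (0.88) and Cdc37l1 (0.82) for Ankrd11, and Bace1 (0.77) and Tet3 (0.73) for Chd8. Among the 10 themselves, Chd2 and Setd5 were most alike (r = 0.92), followed by Chd2 and Chd7 (0.90), and Auts2 and Chd7 were least alike (-0.52).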

How the data were processed

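Single-nucleus libraries were made with 10x Chromium 3′ v3.1 chemistry from frozen, papain-dissociated and sorted nuclei. The authors deposited UMI counts per gene and barcode, aligned to mm10 with Cell Ranger. The notes name version 3.1.0, while the file headers name 3.1.0 for replicate 1 (31053 genes, 6794880 barcodes) and 6.0.1 for replicate 2 (32285 genes, called barcodes). Genes listed in both (30406) were kept, with spans and exons taken from GENCODE M21. The microglia libraries of the series were left aside.

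The floor for a nucleus was 500 UMIs and 200 genes, 3.65 to 4.95% per library were removed as doublets by simulated-doublet score at the rate expected for their number, and the rest were clustered (scanpy 1.11.5, 2000 variable genes, 30 components, Leiden resolution 1). Clusters were named from marker lists, by a scoring rule fixed once clusters existed but ahead of the tests. One cluster with hemoglobin transcripts leading, and another with 699 of its 834 nuclei from wild-type saline replicate 1, stayed unnamed with others (4262 nuclei). Sums of UMIs by library and class were fitted as 4 group means over 8 libraries (edgeR 4.0.16 quasi-likelihood, TMM, filterByExpr), with Benjamini-Hochberg adjustment within class and comparison at 0.05. SE is the log2 change divided by the root of F. Levels, overlaps of groups and changes within replicates are on CPM without TMM factors. DESeq2 1.42.0 and the other alternatives are given in the closing section, and the script was tested on simulated data. The study's own mixed model over single cells was not run.

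Members, lists and settings were chosen with earlier results of these data known. All 10 members are named, plus, per list, the 2 genes with the smallest unadjusted p in wild type in all nuclei and any called gene (1 gene is not reported here), and for likeness the first 5 genes for Auts2 and first 2 for the others. Deviations of same-numbered libraries from their group means correlated in all 54 checks (0.26 to 0.68), so the replicate numbers were read as pairing libraries. The main fit has no term for this pairing, which stays in its spread. Only the replicate block carries it, with 485 of 79105 wild-type tests called over the 8 classes, against 0 in the main fit. The replicate numbers also stand for the software version and gene list.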

Additional observations from a re-analysis of the deposited data

How the results depend on the processing

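Apart from leaving out 1 library, 90 of 90 alternative values of the members' changes in all nuclei kept their direction and stayed uncalled in wild type (232 of 232 with Auts2 and Ankrd11 by class), and 82 of 90 did so in Csf1r-null. Sums over all nuclei do not depend on the clustering. The all-nuclei values at resolution 0.5, which are among these counts, therefore repeat the main fit and could not differ. Leaving out 1 library also kept the direction in wild type but moved the values, to 0.13 to 0.41 (Auts2), 0.02 to 0.26 (Chd8), 0.02 to 0.25 (Chd2), 0.19 to 0.74 (Chd7), 0.01 to 0.40 (Arid1b), 0.02 to 0.34 (Ash1l), 0.01 to 0.26 (Kmt2a), 0.05 to 0.37 (Kmt2c), 0.42 to 0.47 (Ankrd11) and 0.00039 to 0.28 (Setd5), and to 0.08 to 0.71 for Ankrd11 in interneurons and 0.02 to 0.38 for Auts2 in SCPNs. Chd8 in Csf1r-null turned to -0.0083 with RLE size factors, -0.0077 in DESeq2, -0.0138 without both libraries whose microglial genes go against the label and -0.0018 with at least 1000 UMIs, and Kmt2c to -0.0072, -0.0070, -0.0986 and -0.0181. Leaving out 1 library at a time gave Csf1r-null ranges of -0.077 to 0.21 (Auts2), -0.15 to 0.17 (Chd8), -0.18 to 0.016 (Chd2), -0.16 to 0.28 (Chd7), -0.51 to 0.20 (Arid1b), -0.22 to 0.42 (Ash1l), -0.23 to 0.16 (Kmt2a), -0.23 to 0.23 (Kmt2c) and -0.062 to 0.15 (Setd5), all of which change sign, and 0.071 to 0.29 for Ankrd11, which does not.

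Counts of genes called were 0 in every comparison and moved as follows, and the cause was not tested. For MIA in wild type over the 8 classes, DESeq2 called 77, no filter on low counts 305 and the replicate block 485, and in all nuclei DESeq2 called 4, no filter 63 and leaving out both libraries 1. In Csf1r-null, no filter gave 11 over the classes, and in all nuclei DESeq2 gave 1, no filter 5 and leaving out both libraries 2. The difference between genotypes gave 25 without a filter, 2 with the replicate block, 1 without both libraries and 2 with doublets kept over the classes, and 2 (DESeq2), 10 (no filter) and 2 (replicate block) in all nuclei. Over both genotypes the counts were 17 (DESeq2), 93 (no filter) and 33 (replicate block), and 25 (no filter) and 2 (without both libraries) in all nuclei. Csf1r-null against wild type gave, after saline, 63 (DESeq2), 203 (no filter), 280 (replicate block) and 1 (at least 1000 UMIs) over the classes and 4, 67 and 2 with the first 3 in all nuclei, and, after MIA, 27 (no filter) and 5 (replicate block) over the classes and 3 (no filter) in all nuclei. Without 1 library, counts ran from 0 to 69 (wild type, highest without wild-type saline replicate 2), 0 to 24 (both genotypes), 0 to 37 (genotypes after saline) and 0 to 1 (genotypes after MIA) over the classes, and from 0 to 3 in all nuclei. The replicate block changed no other call of a member.

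With doublets kept, all nuclei were clustered and named anew, so the classes also changed. The mean of Chd2 in APs was then 375 CPM, against 480 CPM in the main setting, and that of Chd7 in IPs 264 CPM, against 369 CPM. With genes of at least 10 CPM alone, the wild-type median of genes over 300 kb was 0.14, and leaving out 1 library gave 0.017 to 0.18 in wild type and -0.12 to 0.08 in Csf1r-null. At resolution 0.5 no SCPN class formed, so those values could not be given. Depth limits Chd7 most, with 6 to 13 UMIs in the thinnest libraries of projection neurons.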
